A study of Mus musculus with 34 samples.

Results

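Guanylate binding proteins are large GTPases of the dynamin superfamily that assemble as coats on intracellular pathogens and on the vacuoles that enclose them. In monocytes and macrophages their genes are classical targets of interferon gamma, and several of them also respond to type I interferon. Some members carry a lipid anchor added by prenyl transferases, and the family takes part in the activation of inflammasomes, the complexes that process interleukin 1 and open gasdermin pores. The members described here are Gbp2, Gbp3, Gbp4, Gbp5, Gbp6, Gbp7, Gbp8 and Gbp9, which are the genes of the deposited table whose Entrez Gene ID maps to these symbols, 8 of 24475 genes. All 8 passed the filter on low counts in each fit.

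RNA was measured in 34 libraries of C57/Bl6 mouse cells, 24 of them from tumor-bearing mice and 10 from culture. The tumors were MC38, a colon adenocarcinoma line, or LLC, the Lewis lung carcinoma line. Tumor macrophages of both lines are called MC38 TuMac and LLC TuMac. Tumor monocytes carrying Ly6C and CD88 were Sca1+ in MC38 tumors (MC38 TuMon1) and Sca1- in LLC tumors (LLC TuMon2). Ly6C+ monocytes of the spleen are called MC38 spMon and LLC spMon after the tumor that the mice bore. Each of these 6 groups had 4 libraries. Bone marrow monocytes were cultured with MC38 supernatant (labelled Ly6C+ CD88+ Sca1+, n = 3), with LLC supernatant (labelled Ly6C+ CD88+ Sca1-, n = 3) or untreated (control culture, labelled Ly6C+, n = 4). Each monocyte subset was taken from 1 tumor line, so in vivo the Sca1 gate and the tumor line cannot be told apart. In culture the labelled markers differ with the supernatant, so supernatant and labelled markers cannot be told apart either. The labels name no gate for the macrophages, no age, and no supernatant dose or time. They do not say whether replicates were separate mice or cultures, so the p-values measure only the spread between these libraries.

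Library totals lay between 13047772 and 26966644 estimated counts. Levels are in normalised CPM (counts scaled to library size) on 1 scale for all 34 libraries. Levels of different genes are compared per kilobase of exon, over the merged exons of all annotated transcripts, unless said otherwise. The 7 macrophage markers summed to 10300 to 10800 CPM in MC38 TuMac, 6450 to 7360 in LLC TuMac, 6490 to 7400 in TuMon1 and 3240 to 3540 in TuMon2, with none at 0. The 6 monocyte markers summed to 7400 to 7970 CPM in TuMon1, 9360 to 9970 in TuMon2, 2790 to 3340 in MC38 TuMac and 5730 to 6830 in LLC TuMac. Macrophage markers stood at 694 to 893 CPM in MC38 spMon and 802 to 1110 in LLC spMon. Replicates 1, 2 and 3 of MC38 spMon held 4860 to 8410 CPM of 5 fat cell markers, against 2.86 CPM in replicate 4. MC38 supernatant replicate 3 held 2450 CPM of 6 fibroblast markers and control culture replicate 2 held 29.2 CPM, against at most 2.07 CPM in the other cultures. Control culture replicate 2 also held 78.8 CPM of 5 epithelial markers, against 0.151 to 0.693 CPM in the other controls. In these bulk samples, fewer cells of a type and less RNA per cell cannot be told apart.

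The members lie in 2 clusters of the GRCm38 assembly. By Entrez Gene ID they are 14469 (Gbp2), 55932 (Gbp3), 17472 (Gbp4), 229898 (Gbp5), 100702 (Gbp6), 229900 (Gbp7), 76074 (Gbp8) and 236573 (Gbp9). Gbp5 (chr3:142496934-142522344), Gbp7 (chr3:142530336-142550151), Gbp3 (chr3:142560016-142573213) and Gbp2 (chr3:142620663-142638008) lie on the plus strand of chromosome 3. Gbp8 (chr5:105012513-105053609), Gbp9 (chr5:105076464-105110357), Gbp4 (chr5:105115767-105139586) and Gbp6 (chr5:105270702-105295871) lie on the minus strand of chromosome 5. The paralogs share sequence, which bears on how the authors' counting divided reads. Of the 50-base words in Gbp6 transcripts, 45.9% also occur in Gbp10 and 70.7% in any other gene. The split of reads between Gbp6, Gbp10 and other genes is therefore uncertain. The share of words found in another Gbp gene was 18.1% for Gbp8, 8.05% for Gbp9, 7.53% for Gbp4, and 3.75% or less for Gbp2, Gbp3, Gbp5 and Gbp7. For Gbp7 the share found in any other gene, Gbp or not, was 12.7%.

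Promoters are shown for the chromosome 3 members because these 4 of the 8 members matched the RefSeq promoter table, and all 4 were higher in MC38 tumor cells than in LLC tumor cells. The sequences are the 250 bases before the transcription start in that table (GRCm38.p6, plus strand, 5′ to 3′), for Gbp3 before the first of 2 starts. The end of that Gbp3 window lies inside the gene as annotated above, so its distances hold for the start in the promoter table. Capitals mark matches to GAAANNGAAA on either strand, the core of an interferon-stimulated response element, and to TTCNNNGAA, the palindrome of a gamma-activated site. In Gbp3 a pair of overlapping matches to the first motif forms 1 stretch of capitals.
Gbp2 (chr3:142620413-142620662): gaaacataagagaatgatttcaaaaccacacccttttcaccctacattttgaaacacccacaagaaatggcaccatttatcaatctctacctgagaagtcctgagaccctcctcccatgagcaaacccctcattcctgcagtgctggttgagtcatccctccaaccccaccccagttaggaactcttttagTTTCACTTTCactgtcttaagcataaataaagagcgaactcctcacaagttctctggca
Gbp3 (chr3:142559794-142560043): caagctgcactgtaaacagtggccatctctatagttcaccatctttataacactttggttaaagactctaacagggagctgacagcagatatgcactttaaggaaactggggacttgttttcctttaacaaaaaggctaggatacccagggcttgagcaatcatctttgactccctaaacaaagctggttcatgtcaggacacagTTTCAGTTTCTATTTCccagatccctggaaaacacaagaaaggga
Gbp5 (chr3:142496684-142496933): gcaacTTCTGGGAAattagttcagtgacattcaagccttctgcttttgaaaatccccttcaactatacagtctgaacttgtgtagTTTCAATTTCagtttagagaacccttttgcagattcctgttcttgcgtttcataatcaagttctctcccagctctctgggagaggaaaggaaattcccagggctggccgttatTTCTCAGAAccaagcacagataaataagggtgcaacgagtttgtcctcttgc
Gbp7 (chr3:142530086-142530335): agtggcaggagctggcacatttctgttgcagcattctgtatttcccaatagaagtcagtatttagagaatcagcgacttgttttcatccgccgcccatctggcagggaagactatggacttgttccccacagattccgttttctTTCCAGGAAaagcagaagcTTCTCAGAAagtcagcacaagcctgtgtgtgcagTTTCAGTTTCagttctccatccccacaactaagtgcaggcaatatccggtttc

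The 4 windows shown held GAAANNGAAA, each time on the minus strand, while the window before the second Gbp3 start (chr3:142560106-142560355) held neither motif, so 4 of 5 windows had the first motif. The match lay 59 to 50 bases before the start in Gbp2, 53 to 44 in Gbp7 and 165 to 156 in Gbp5, and the matches in Gbp3 ran from 45 to 30 bases before it. TTCNNNGAA was found in Gbp5, at 245 to 237 and 52 to 44 bases, and in Gbp7, at 106 to 98 and 87 to 79 bases. Of 32851 promoter windows of the same length, 2.98% held GAAANNGAAA and 7.02% held TTCNNNGAA. A match describes letters in these windows and shows no binding.

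The family was most abundant in tumor monocytes of MC38. Its summed level was 2696 to 3436 CPM in TuMon1, 1666 to 2251 CPM in MC38 TuMac and 1223 to 1689 CPM in TuMon2. Next came 399.2 to 662.6 CPM in LLC spMon, 373.2 to 582.1 CPM in LLC TuMac, 367.4 to 491.3 CPM in MC38 spMon and 331.9 to 444.9 CPM with MC38 supernatant, 4 groups whose ranges overlap. Control cultures followed at 98.43 to 136.4 CPM and cultures with LLC supernatant at 82.05 to 87.06 CPM. MC38 TuMac and TuMon2 also overlapped, whereas TuMon1 lay above every other library and a gap separated TuMon2 from the 4 groups below it. In each of the 4 tumor groups replicate 4 had the highest sum.

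**Figure D1:**
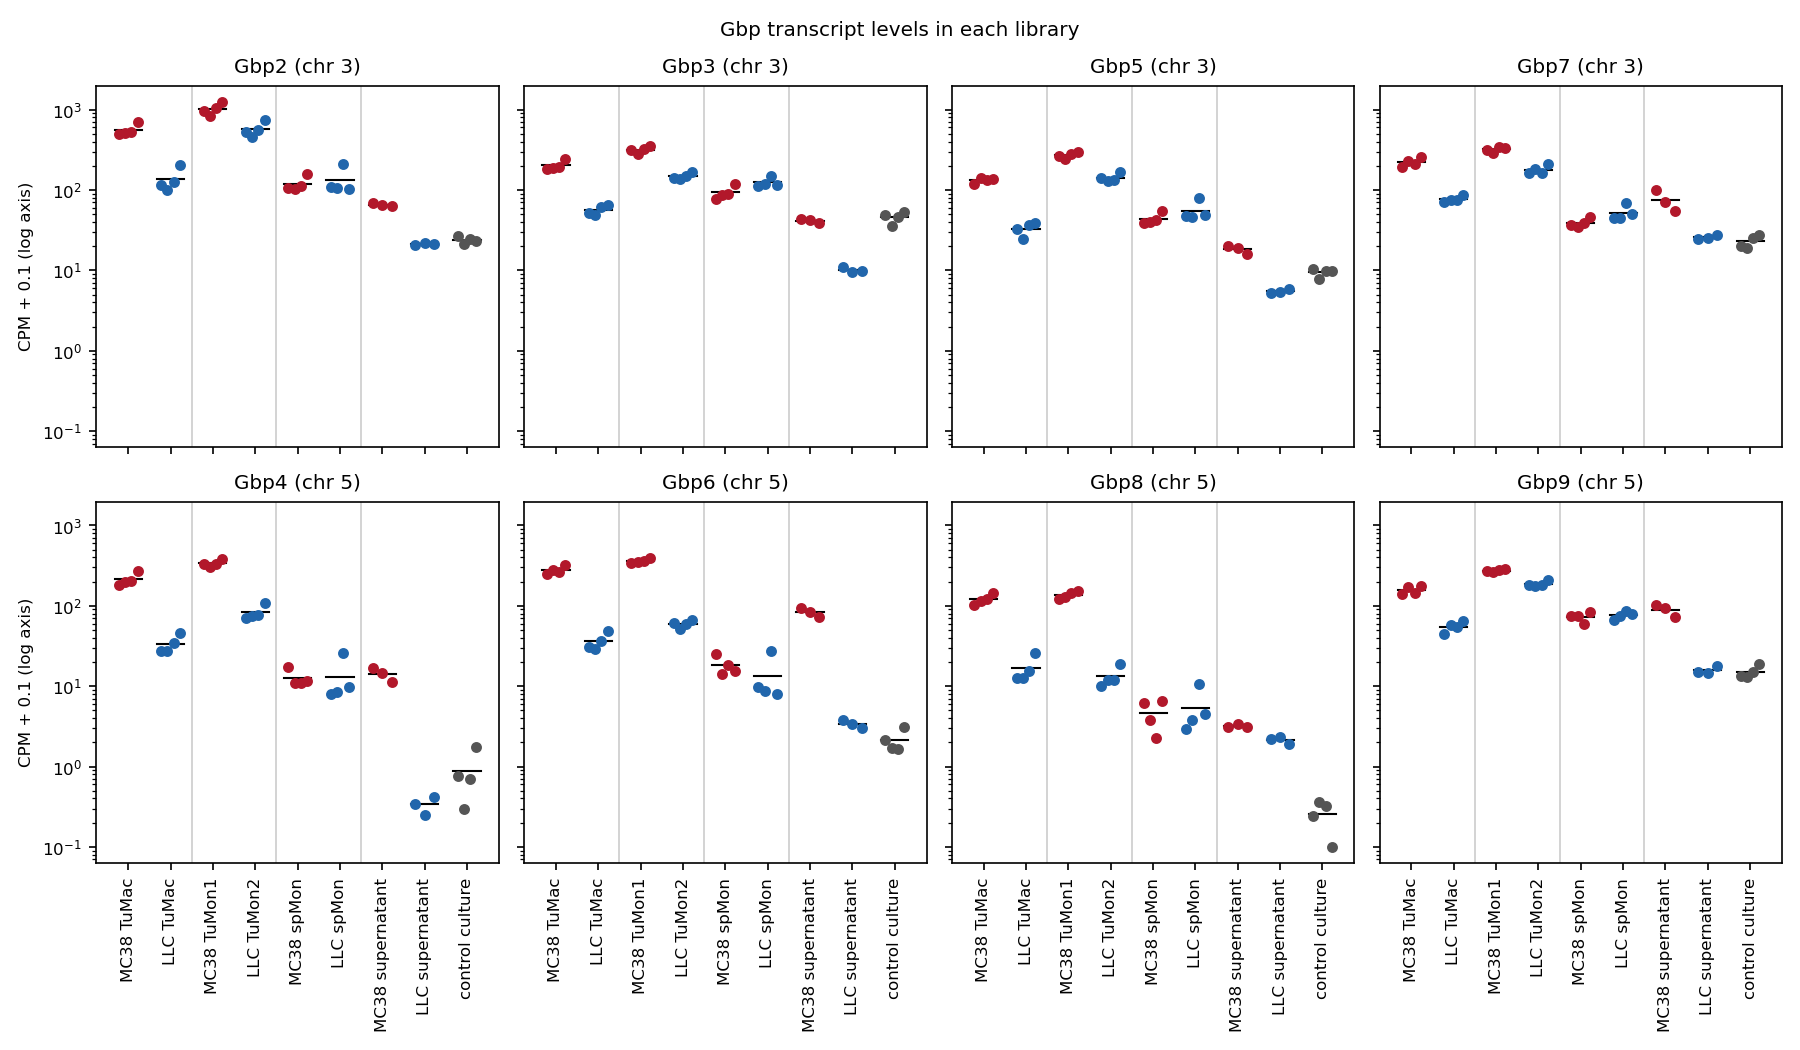
Levels of the 8 Gbp members in each library, as CPM + 0.1 on a log axis. Points are libraries and bars are group means; each member has its highest mean in MC38 TuMon1 and its lowest in cultures with LLC supernatant or in control cultures.

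Per kilobase of exon, Gbp2 made up the largest share of the family in 8 of the 9 groups. The merged exons measured 2516 bases for Gbp2 and 7494 for Gbp4, and the shares depend on such lengths. In CPM not scaled by length, Gbp9 (mean 89.46) exceeded Gbp2 (65.68) with MC38 supernatant. Gbp7 (25.75) exceeded Gbp2 (21.3) with LLC supernatant. Gbp2 held 45.8% ± 1.64 of the summed CPM per kb in MC38 TuMac and 45.8% ± 4.45 in LLC TuMac (SD, n = 4 each). It held 50.6% ± 2.25 in TuMon1 and 58.3% ± 2.56 in TuMon2 (SD, n = 4 each). In control cultures Gbp3 led instead, with 43.2% of the per-kilobase level, against 29.4% for Gbp2. Cultures with MC38 supernatant had the most even makeup, with 29.5% for Gbp2, 19.4% for Gbp9, 15.7% for Gbp6 and 14.9% for Gbp7. Gbp4, Gbp6 and Gbp8 together were minor members in spleen and in control cultures, where each held at most 2.86%, and each held 4.95% or more in TuMon1 and MC38 TuMac.

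**Figure D2:**
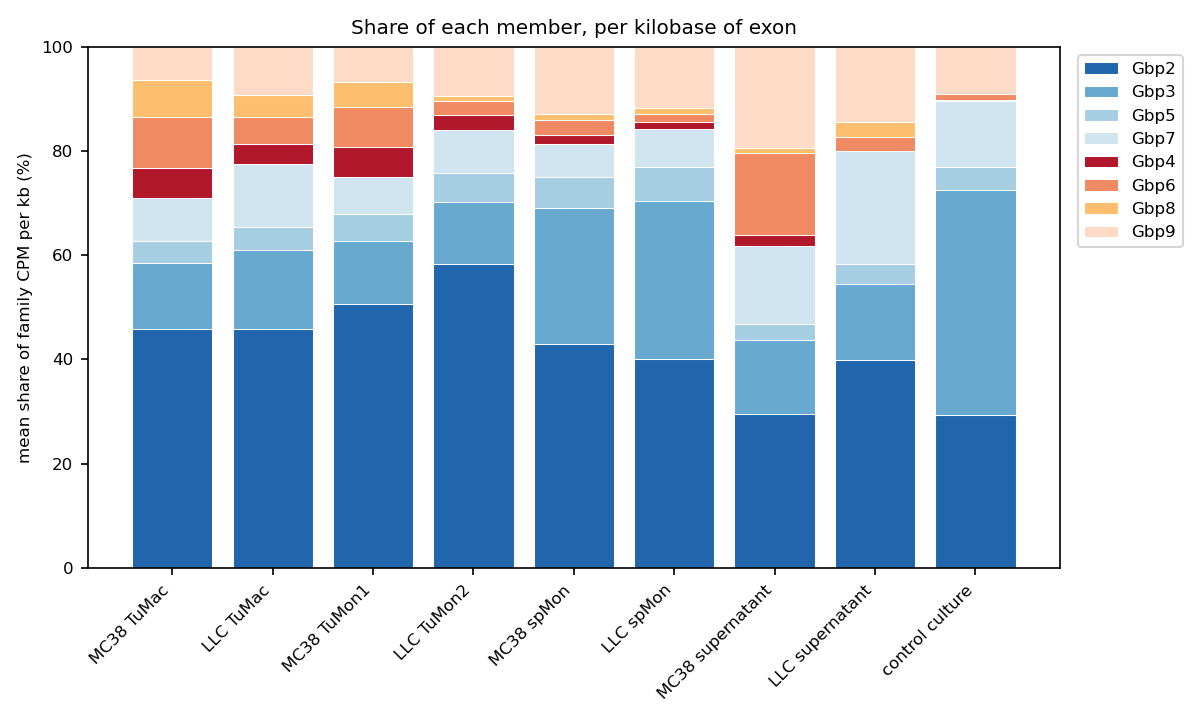
Mean share of each member in the family's summed CPM per kilobase of exon, in percent, for the 9 groups. Gbp2 (dark blue) is the largest part of each bar except the control culture, where Gbp3 reaches 43.2%.

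TuMon1 monocytes of MC38 tumors were first compared with TuMon2 monocytes of LLC tumors. All 8 members were higher in TuMon1, against 26.8% of the 13200 genes tested, by edgeR's quasi-likelihood test with Benjamini-Hochberg adjustment over all genes. The median log2 difference was 1.02 over the members and 0.06 over all genes. In each member every TuMon1 library lay above every TuMon2 library, as in 27.9% of genes. The chromosome 3 members differed by 0.84 to 1.10 on the log2 scale, and Gbp4, Gbp6 and Gbp8 of chromosome 5 by 2.04 to 3.36.

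Gbp2, a prenylated member that coats the vacuoles of Toxoplasma, stood at 970, 834, 1050 and 1230 CPM in TuMon1, against 521, 462, 553 and 740 CPM in TuMon2. The lowest TuMon1 library lay above the highest TuMon2 library, and replicate 4 was the highest of both groups (log2 difference 0.84 ± 0.25, SE; adjusted p = 0.00832). Gbp3, which like Gbp6, Gbp7 and Gbp9 gathers at Toxoplasma vacuoles in mouse cells, had 312, 282, 328 and 352 CPM in TuMon1 and 139, 136, 151 and 167 CPM in TuMon2, with a clear gap between the groups (1.10 ± 0.12; adjusted p = 8.74e-08). Gbp5, linked in mouse macrophages to the NLRP3 inflammasome, had 263, 244, 284 and 293 CPM in TuMon1, against 140, 129, 132 and 168 CPM in TuMon2. Its groups were also apart (0.93 ± 0.16; adjusted p = 4.61e-05). Gbp7, which in mouse macrophages acts with the phagocyte oxidase, had 311, 292, 347 and 337 CPM in TuMon1 and 163, 180, 161 and 209 CPM in TuMon2 (0.85 ± 0.12; adjusted p = 3.43e-06). Its groups did not overlap either.

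Gbp4 had 329, 306, 334 and 387 CPM in TuMon1, against 70.9, 75.6, 75.8 and 108 CPM in TuMon2. Replicate 4 was the highest in both groups, and the gap between them was wide (2.04 ± 0.29; adjusted p = 1.08e-05). Gbp6, whose reads overlap those of Gbp10, had 338, 348, 361 and 394 CPM in TuMon1 and 60.2, 51.5, 58.7 and 67.4 CPM in TuMon2 (2.60 ± 0.30; adjusted p = 5.68e-07). Gbp8 showed the largest difference of the family, 3.36 ± 0.34 (adjusted p = 1.37e-07). Its levels were 121, 129, 143 and 152 CPM in TuMon1 and 9.91, 12, 11.9 and 18.6 CPM in TuMon2. Gbp9 showed the smallest, 0.55 ± 0.11 (adjusted p = 0.000176), with 273, 261, 275 and 287 CPM in TuMon1 and 180, 177, 182 and 211 CPM in TuMon2. Its groups still did not overlap.

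Other cell types' markers also differed between these groups. Of the T and NK cell markers 5 of 9 tested were higher in TuMon1, and the sum of all 12 was 8.69 to 13 CPM in TuMon1 and 2.4 to 3.9 CPM in TuMon2, where Cd3e and Cd3g were at 0. Of the macrophage markers 6 of 7 were higher in TuMon1, and of the dendritic cell markers 4 of 7, summing to 18.4 to 23.9 CPM in TuMon1 and 4.99 to 9.09 CPM in TuMon2. Endothelial markers summed to 130 to 211 CPM in TuMon1 and 11.7 to 13.4 CPM in TuMon2, with 1 of 3 tested called higher. Epithelial markers were lower in TuMon1 for 3 of 3 tested, with sums of 5.77 to 8.1 CPM in TuMon1 and 42.5 to 67.6 CPM in TuMon2 (Krt19 at 0). The part of these markers in the Gbp difference was not tested. Ifng, the gene of interferon gamma itself, stood at 0.107 to 0.357 CPM in TuMon1 and 0 to 0.354 CPM in TuMon2.

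Macrophages of the tumors were compared in the same way. All 8 members were higher in MC38 TuMac than in LLC TuMac, against 22.4% of genes, with a median log2 difference of 2.03 over the members and 0.00 over all genes. In each member every MC38 library lay above every LLC library, as in 22.3% of genes. Differences ran between 1.52 for Gbp9 and 2.95 for Gbp6.

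Gbp2 had 494, 507, 532 and 705 CPM in MC38 TuMac, against 115, 98.8, 124 and 206 CPM in LLC TuMac. Replicate 4 was the highest library in both groups (2.04 ± 0.26; adjusted p = 1.5e-06). Gbp3 had 184, 189, 194 and 241 CPM in MC38 TuMac and 51.3, 48.8, 61.9 and 65.8 CPM in LLC TuMac (1.83 ± 0.13; adjusted p = 1.65e-11). Gbp5 had 118, 143, 134 and 136 CPM in MC38 TuMac and 32.5, 24.3, 36.2 and 39.3 CPM in LLC TuMac (2.01 ± 0.17; adjusted p = 1.1e-09). For Gbp5 the lowest MC38 library stood well above the highest LLC library. Gbp7 had 195, 228, 209 and 261 CPM in MC38 TuMac and 70.3, 75.1, 74.3 and 85.9 CPM in LLC TuMac (1.55 ± 0.12; adjusted p = 2.38e-10). The groups were apart for Gbp3 and Gbp7 as well.

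Gbp4 had 180, 196, 206 and 268 CPM in MC38 TuMac, against 27, 26.9, 34.3 and 46.1 CPM in LLC TuMac (2.67 ± 0.30; adjusted p = 4.76e-07). Gbp6 had 250, 276, 265 and 322 CPM in MC38 TuMac and 30.9, 29.1, 36.2 and 48.3 CPM in LLC TuMac (2.95 ± 0.30; adjusted p = 1.11e-07). In both genes replicate 4 was the highest of its group. Gbp8 had 103, 114, 121 and 145 CPM in MC38 TuMac and 12.7, 12.7, 15.5 and 25.7 CPM in LLC TuMac (2.87 ± 0.33; adjusted p = 6.3e-07). Gbp9 had 142, 171, 146 and 174 CPM in MC38 TuMac and 44.0, 57.5, 53.7 and 65.2 CPM in LLC TuMac (1.52 ± 0.11; adjusted p = 3.04e-11). For each of the chromosome 5 members the groups were separated. Of the T and NK cell markers 5 of 9 tested were higher in MC38 TuMac, with sums of 4.41 to 7.94 CPM in MC38 TuMac and 2.4 to 5.41 CPM in LLC TuMac (Cd3g and Ncr1 at 0). Dendritic cell markers summed to 26.5 to 34.8 CPM in MC38 TuMac and 8.7 to 18.8 CPM in LLC TuMac (Siglech at 0), with 3 of 7 called higher and 1 lower. B cell markers summed to 29.8 to 32.8 CPM in MC38 TuMac and 2.66 to 5.14 CPM in LLC TuMac (Pax5 at 0 in both), with 1 of 4 tested called higher. Epithelial markers were lower in MC38 TuMac for 3 of 3 tested, at 5.68 to 8.37 CPM in MC38 TuMac and 94.7 to 148 CPM in LLC TuMac (Epcam and Krt19 at 0). The part of these markers was not tested.

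**Figure D3:**
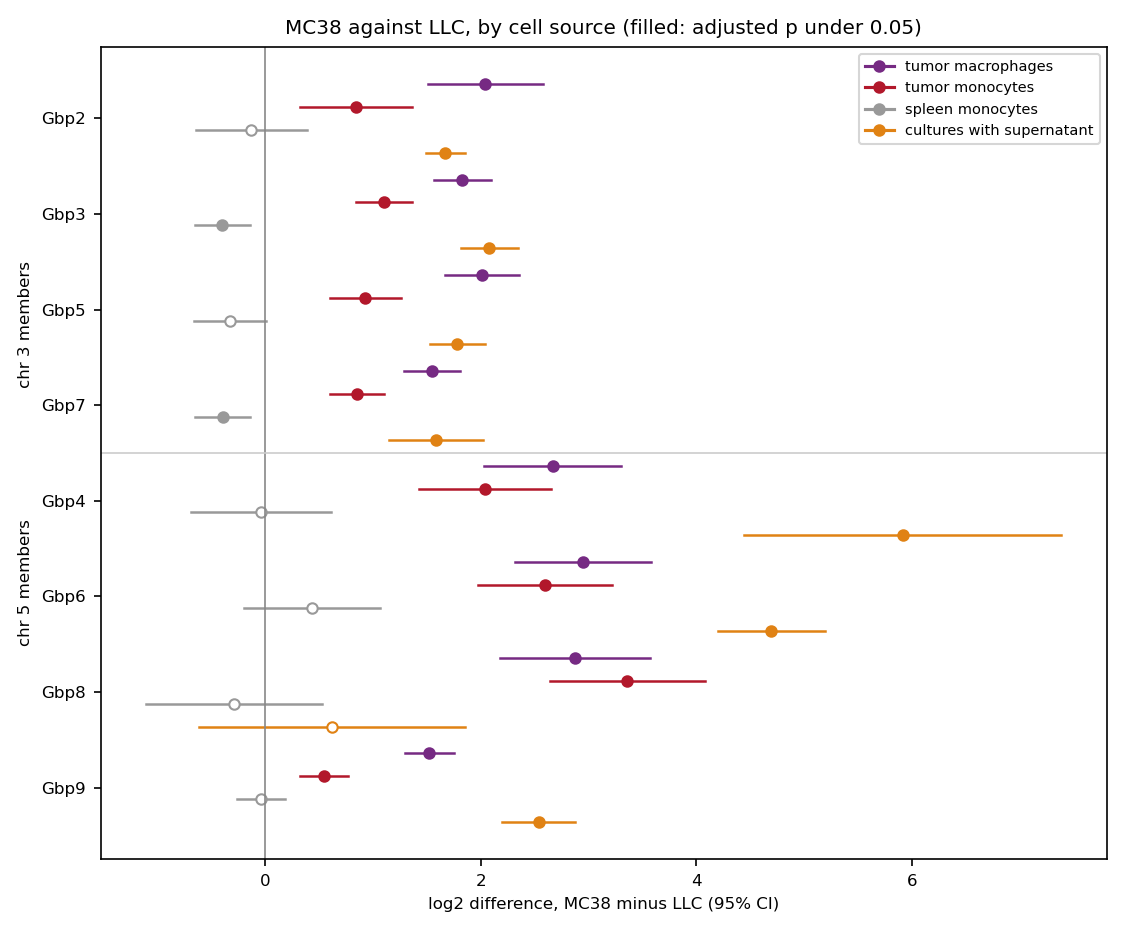
MC38-minus-LLC log2 differences of the 8 members with 95% confidence intervals, in tumor macrophages, tumor monocytes, spleen monocytes and cultures with supernatant. Filled points passed adjusted p under 0.05, and the spleen values lie between -0.40 and 0.43 while those of the other 3 sources are positive for every member.

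Tumor monocytes were set against Ly6C+ spleen monocytes of mice with the same tumor. In MC38 all 8 members were higher in TuMon1, against 33.5% of genes, by 1.75 to 4.93 on the log2 scale (median 3.05, against -0.04 over all genes). In LLC 7 of 8 members were higher in TuMon2, against 28.6% of genes, by 1.28 to 2.66 (median of all 8 members 1.57, against -0.05). The MC38 and LLC comparisons have no library in common, but each uses the tumor monocyte libraries compared above. The levels of the tumor monocytes are those given above. Neutrophil markers were lower in the tumor for 6 of 7 in MC38, with sums of 22.3 to 28.7 CPM in TuMon1 and 461 to 1980 CPM in MC38 spMon, and for 7 of 7 in LLC, with 65.2 to 88.8 CPM in TuMon2 and 1570 to 2550 CPM in LLC spMon. T and NK cell markers were lower for 8 of 9 tested in TuMon2 than in LLC spMon, and in MC38 3 of 9 were higher and 4 lower in TuMon1. Macrophage markers were higher in the tumor for 7 of 7 in MC38 and 6 of 7 in LLC. In MC38 fat cell markers were lower in the tumor for 5 of 5 and fibroblast markers for 6 of 6. The part of these markers in the Gbp differences was not tested. Leaving out the 5 libraries with fat cell or fibroblast transcripts leaves 1 library in MC38 spMon. The MC38 difference was then smaller for Gbp2 (2.70), Gbp3 (1.41), Gbp5 (2.31), Gbp7 (2.80), Gbp8 (4.40) and Gbp9 (1.70). It was larger for Gbp4 (4.88) and Gbp6 (4.56).

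In the spleens Gbp2 had 107, 102, 112 and 156 CPM in MC38 spMon and 109, 105, 213 and 102 CPM in LLC spMon, all below the tumor monocytes. The difference from spleen was 3.08 ± 0.27 for TuMon1 (adjusted p = 2.59e-09) and 2.11 ± 0.26 for TuMon2 (adjusted p = 5.05e-07). Gbp3 had 78.0, 87.3, 89.7 and 119 CPM in MC38 spMon and 113, 118, 151 and 117 CPM in LLC spMon. TuMon1 stood apart from its spleen group for Gbp3 (1.75 ± 0.13; adjusted p = 8.1e-12), whereas TuMon2 overlapped its own and did not pass (0.25 ± 0.12; adjusted p = 0.0816). That value passed in 5 of 16 alternatives, with adjusted p between 0.0108 and 0.337, one of them leaving out LLC spMon replicate 3 (0.35, adjusted p = 0.0221).

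Gbp5 had 38.5, 39.9, 42.2 and 54.2 CPM in MC38 spMon and 47.0, 45.6, 80.4 and 48.6 CPM in LLC spMon. It was higher by 2.62 ± 0.17 in TuMon1 (adjusted p = 4.04e-12) and by 1.36 ± 0.16 in TuMon2 (adjusted p = 1.61e-07). Gbp7 had 36.4, 35.0, 38.4 and 46.0 CPM in MC38 spMon and 44.4, 44.6, 68.7 and 50 CPM in LLC spMon. Neither gene's tumor libraries overlapped the spleen libraries, and Gbp7 differed by 3.03 ± 0.13 in MC38 (adjusted p = 5.62e-16) and by 1.78 ± 0.13 in LLC (adjusted p = 9.21e-12). Gbp9 had 73.6, 74.7, 59.3 and 83.6 CPM in MC38 spMon and 65.9, 73.5, 85.7 and 78.0 CPM in LLC spMon. Its differences of 1.89 ± 0.11 in MC38 (adjusted p = 1.38e-13) and 1.31 ± 0.11 in LLC (adjusted p = 1.67e-10) were the closest to each other in the family.

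Gbp4 had 17.2, 10.9, 11.0 and 11.4 CPM in MC38 spMon and 7.9, 8.43, 25.9 and 9.56 CPM in LLC spMon. It was higher by 4.73 ± 0.33 in TuMon1 (adjusted p = 1.55e-10) and by 2.66 ± 0.31 in TuMon2 (adjusted p = 3.55e-07). Gbp6 had 25.1, 14.1, 18.4 and 15.2 CPM in MC38 spMon and 9.76, 8.6, 27.6 and 7.91 CPM in LLC spMon. For both genes LLC spMon replicate 3 was far above the other 3 libraries, and Gbp6 differed by 4.29 ± 0.32 in MC38 (adjusted p = 3.76e-10) and by 2.12 ± 0.30 in LLC (adjusted p = 4.71e-06). Gbp8 had 6.02, 3.69, 2.16 and 6.4 CPM in MC38 spMon and 2.79, 3.64, 10.4 and 4.34 CPM in LLC spMon. Its difference was 4.93 ± 0.38 in MC38 (adjusted p = 5.66e-10) and 1.28 ± 0.36 in LLC (adjusted p = 0.00461), where the highest spleen library reached above the lowest TuMon2 library. Without LLC spMon replicate 3 the LLC differences were 3.26 for Gbp4, 2.76 for Gbp6 and 1.88 for Gbp8. That library had 332 CPM of Irf1, against 240 to 250 CPM in the other 3. Its T and NK marker sum of 30.6 CPM was the lowest of its group, close to 33 CPM in replicate 4. Its sums of macrophage (1110 CPM), neutrophil (2550 CPM) and endothelial markers (17.3 CPM) were the highest of the group. The part of these genes in its Gbp levels was not tested.

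The change between spleen and tumor was itself compared between the tumor lines, as a difference of differences in 1 fit. All 8 members had a larger tumor-minus-spleen difference in MC38 than in LLC, against 23.8% of genes. The excess was 3.65 ± 0.51 for Gbp8, 2.17 ± 0.42 for Gbp6, 2.08 ± 0.42 for Gbp4, 1.5 ± 0.17 for Gbp3, 1.25 ± 0.23 for Gbp5 and 1.25 ± 0.17 for Gbp7. It was 0.97 ± 0.35 for Gbp2 and 0.58 ± 0.15 for Gbp9, and adjusted p over the 8 members lay between 3.4e-07 and 0.0313. Leaving out LLC spMon replicate 3 brought Gbp4 to 1.48, Gbp6 to 1.54 and Gbp8 to 3.06, all still past the threshold. Gbp2 did not hold without that library (0.65, adjusted p = 0.0879) or in 9 other alternatives, with adjusted p between 0.00446 and 0.427 over 24. Those 9 include leaving out TuMon1 replicate 4, MC38 spMon replicate 1, 2 or 3, or TuMon2 replicate 1, 2 or 3 (0.89 to 0.98). Without the 5 libraries with fat cell or fibroblast transcripts, Gbp2 (0.60, adjusted p = 0.427) and Gbp9 (0.39, adjusted p = 0.127, range over 24 alternatives 0.000687 to 0.127) did not pass, and the other 6 did. That alternative leaves 1 library in MC38 spMon (replicate 4), which is assumed to vary like the other groups.

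Between the spleen groups themselves 2 of 8 members were called, Gbp3 (-0.40 ± 0.12; adjusted p = 0.0172) and Gbp7 (-0.40 ± 0.12; adjusted p = 0.019), both lower in MC38 spMon, against 14.0% of genes called lower. The libraries of the groups overlapped for all 8 members. Neither call held without the 5 libraries with foreign transcripts (-0.06 for Gbp3 and -0.17 for Gbp7), of which 3 are in MC38 spMon, so that its 1 library left is assumed to vary like the other groups, nor without LLC spMon replicate 3 (-0.30 and -0.24). Gbp3 also failed without MC38 spMon replicate 1 or 3, and Gbp7 without replicate 2 or 3. Without LLC spMon replicate 3 Gbp6 was higher in MC38 spMon (1.06, adjusted p = 0.000375, range over 16 alternatives 0.000375 to 0.977), and without MC38 spMon replicate 4 Gbp5 was lower (-0.45, adjusted p = 0.035, range 0.035 to 1). T and NK cell markers were lower in MC38 spMon for 6 of 9 tested, with sums of 9.19 to 11.2 CPM in MC38 spMon and 30.6 to 44.9 CPM in LLC spMon, and their part was not tested.

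Within each tumor the macrophages were compared with the monocytes. The MC38 and LLC comparisons use the same macrophage and monocyte libraries as the comparisons between tumors above. In MC38 5 of 8 members were lower in TuMac than in TuMon1, against 27.9% of genes. They were Gbp5 (-1.03 ± 0.16; adjusted p = 1.02e-05), Gbp2 (-0.87 ± 0.25; adjusted p = 0.00591), Gbp9 (-0.80 ± 0.11; adjusted p = 1.09e-06), Gbp3 (-0.66 ± 0.12; adjusted p = 7.89e-05) and Gbp7 (-0.53 ± 0.12; adjusted p = 0.000727). Gbp4 at -0.68 ± 0.28 missed the threshold narrowly (adjusted p = 0.0503). Gbp6 at -0.37 ± 0.28 (adjusted p = 0.278) and Gbp8 at -0.17 ± 0.30 (adjusted p = 0.669) were not called, and the 95% interval of Gbp8 ran between -0.80 and 0.46. The libraries of Gbp8 overlapped, and in the other 7 every TuMac library lay below every TuMon1 library, as in 27.2% of genes. Gbp4 passed in 5 of 16 alternatives, one of them without MC38 TuMac replicate 4 (-0.81, adjusted p = 0.0371), with adjusted p between 0.000274 and 0.137. Gbp6 passed in a fit of the 2 groups alone (-0.35, adjusted p = 0.00165, range over alternatives 0.00165 to 0.46). T and NK cell markers were lower in MC38 TuMac for 4 of 9 tested and higher for none. Their sums were 4.41 to 7.94 CPM in MC38 TuMac and 8.69 to 13 CPM in TuMon1. Endothelial markers were lower for 2 of 3 tested and higher for none. B cell markers summed to 29.8 to 32.8 CPM in MC38 TuMac and 6.92 to 8.51 CPM in TuMon1. Of 4 tested, 1 was called higher and none lower. The part of these markers was not tested.

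In LLC 7 of 8 members were lower in TuMac than in TuMon2, against 26.3% of genes. The differences were -2.11 ± 0.17 for Gbp5, -2.07 ± 0.26 for Gbp2, -1.77 ± 0.11 for Gbp9, -1.39 ± 0.13 for Gbp3, -1.31 ± 0.29 for Gbp4 and -1.23 ± 0.12 for Gbp7, with adjusted p between 4.5e-12 and 0.000844. Gbp6 was lower by a smaller margin (-0.73 ± 0.29; adjusted p = 0.0384). It did not pass under upper quartile scaling (-0.58) or without any 1 of TuMon2 replicates 1, 3 and 4 and LLC TuMac replicates 1, 2 and 3 (-0.76 to -0.64), with adjusted p between 0.000909 and 0.102 over 16 alternatives. Gbp8 stood at 12.7 to 25.7 CPM in LLC TuMac and 9.91 to 18.6 CPM in TuMon2, overlapping (0.32 ± 0.34, adjusted p = 0.448, 95% interval -0.39 to 1.02). Neutrophil markers were lower in LLC TuMac for 4 of 7 and higher for none. Their sums were 2.74 to 9.08 CPM in LLC TuMac (Elane at 0) and 65.2 to 88.8 CPM in TuMon2. Dendritic cell markers were higher for 3 of 7 and lower for none. Epithelial markers were higher for 1 of 3 tested and lower for none, at 94.7 to 148 CPM in LLC TuMac and 42.5 to 67.6 CPM in TuMon2. The part of these markers in the Gbp differences was not tested.

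**Figure D4:**
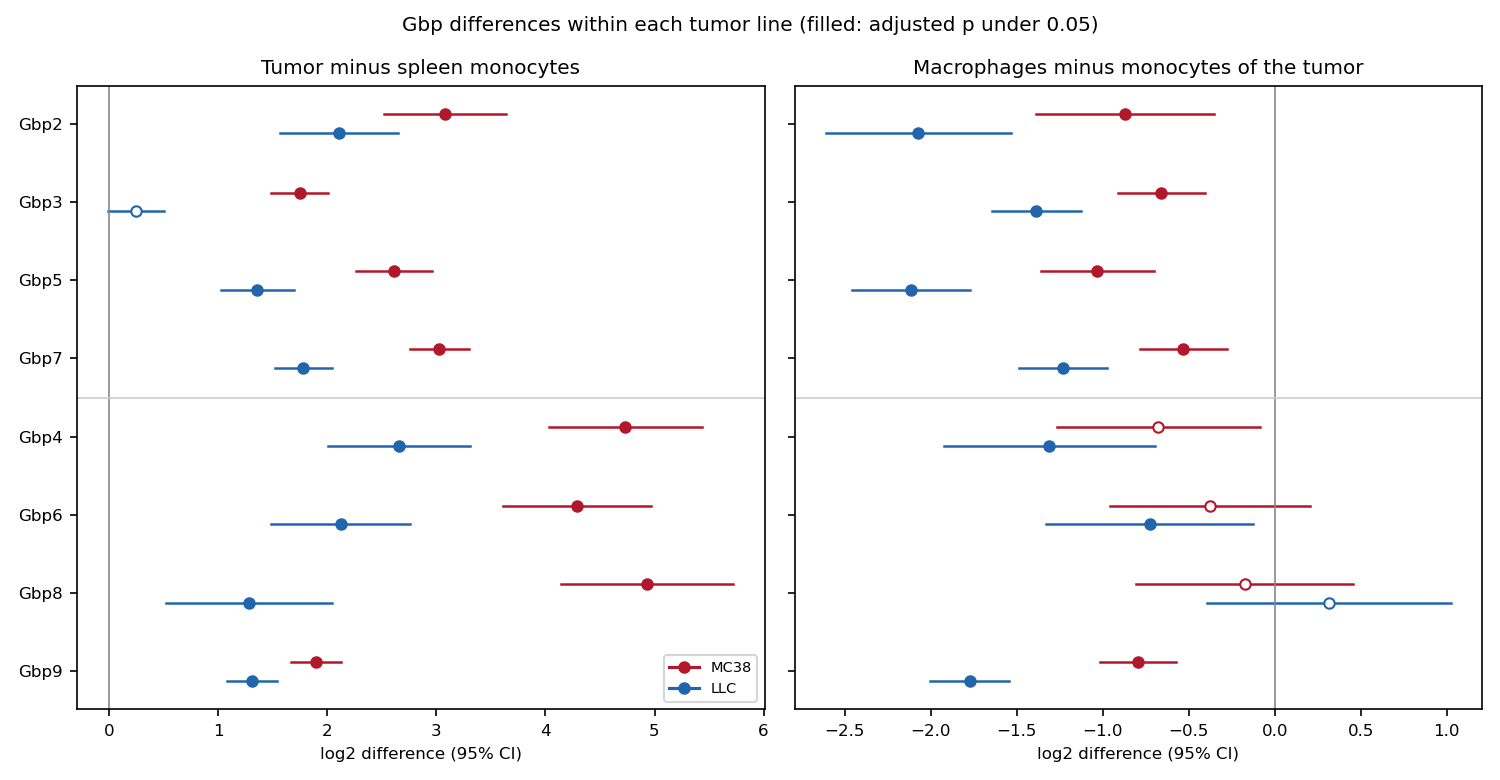
Log2 differences of the 8 members with 95% confidence intervals, tumor minus spleen monocytes (left) and tumor macrophages minus tumor monocytes (right), in MC38 (red) and LLC (blue). Filled points passed adjusted p under 0.05. On the left each MC38 value lies to the right of its LLC value. On the right every member but Gbp8 lies farther below 0 in LLC, a difference that passed its own test for Gbp2, Gbp3, Gbp5, Gbp7 and Gbp9.

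The macrophage-minus-monocyte difference was tested between the tumor lines. For 5 of 8 members it was less negative in MC38 than in LLC, against 6.25% of genes called in that direction. These were Gbp2 (1.2 ± 0.35; adjusted p = 0.0254), Gbp5 (1.08 ± 0.23; adjusted p = 0.00194), Gbp9 (0.98 ± 0.15; adjusted p = 8.3e-05), Gbp3 (0.73 ± 0.17; adjusted p = 0.0055) and Gbp7 (0.70 ± 0.17; adjusted p = 0.00699), that is, all 4 chromosome 3 members and Gbp9. Gbp4 (0.63 ± 0.40), Gbp6 (0.35 ± 0.40) and Gbp8 (-0.49 ± 0.45) did not pass, with adjusted p between 0.341 and 0.63. The Gbp2 call was lost when any 1 of TuMon1 replicates 1 and 2, MC38 TuMac replicate 4, TuMon2 replicate 4 and LLC TuMac replicates 1, 2 and 3 was left out (1.07 to 1.18), with adjusted p between 0.00263 and 0.0636 over 24 alternatives.

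In culture, bone marrow monocytes with MC38 supernatant were compared with those given LLC supernatant, and both with untreated cells. The 2 comparisons with untreated cells share the 4 control libraries, and each shares its supernatant libraries with the comparison between supernatants. Between the supernatants 7 of 8 members were higher with MC38, against 21.6% of the 12603 genes tested, and in all 8 every MC38 library lay above every LLC library, as in 25.9% of genes. The median log2 difference was 1.93 over the members and 0.05 over all genes. Compared with control, 7 of 8 members were higher with MC38 supernatant, against 35.4% of genes called higher. With LLC supernatant 2 were higher, against 32.3%, and 3 lower, against 36.1%.

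Gbp2 had 68.3, 65.0 and 63.7 CPM with MC38 supernatant, 20.7, 21.8 and 21.4 CPM with LLC supernatant and 26.6, 20.9, 24.5 and 23.4 CPM in control cultures. MC38 libraries stood apart from both other groups, which overlapped each other. The difference was 1.67 ± 0.08 between supernatants (adjusted p = 2.58e-07), 1.5 ± 0.07 for MC38 against control (adjusted p = 2.84e-08) and -0.16 ± 0.07 for LLC against control (adjusted p = 0.0738). The last passed without control culture replicate 2 (-0.22, adjusted p = 0.00843; range over 15 alternatives 0.007 to 0.738).

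Gbp3 was the member not called higher with MC38 supernatant than in control cultures. It had 43.0, 42.4 and 38.7 CPM with MC38 supernatant, 10.8, 9.57 and 9.86 CPM with LLC supernatant, and 48.4, 36.0, 46.4 and 52.4 CPM in control cultures. MC38 cultures overlapped the controls (-0.11 ± 0.11; adjusted p = 0.391), while LLC cultures lay below both groups. Against control, LLC supernatant gave -2.19 ± 0.11 for Gbp3 (adjusted p = 5.12e-08), and the supernatants differed by 2.08 ± 0.12 (adjusted p = 8.18e-07). Without control culture replicate 2, Gbp3 was called slightly lower with MC38 supernatant (-0.20, adjusted p = 0.0171; range over 15 alternatives 0.0171 to 0.899).

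Gbp5 had 19.9, 18.8 and 15.7 CPM with MC38 supernatant, 5.15, 5.34 and 5.77 CPM with LLC supernatant and 10.3, 7.79, 9.58 and 9.59 CPM in control cultures, so the controls stood between the supernatants without overlap. With MC38 supernatant it was higher than in control by 1.0 ± 0.10 (adjusted p = 9.79e-06), and with LLC supernatant the difference from control was -0.78 ± 0.11 (adjusted p = 8.11e-05). The supernatants differed by 1.78 ± 0.11 (adjusted p = 1.74e-06). Gbp7 had 99.3, 71.8 and 54.8 CPM with MC38 supernatant, 24.8, 25.3 and 27.2 CPM with LLC supernatant and 20.2, 18.7, 25.3 and 27.8 CPM in control cultures. Its MC38 libraries were the most spread of any member, and they still lay above the rest (1.58 ± 0.20 against LLC, adjusted p = 0.000173; 1.74 ± 0.18 against control, adjusted p = 1.29e-05). LLC supernatant and control overlapped (0.16 ± 0.18; adjusted p = 0.447).

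The chromosome 5 members Gbp4 and Gbp6 showed the largest differences between supernatants. Gbp4 had 16.6, 14.6 and 11.3 CPM with MC38 supernatant, 0.243, 0.148 and 0.321 CPM with LLC supernatant and 0.658, 0.195, 0.606 and 1.67 CPM in control cultures. The LLC values rest on 6, 4 and 8 counts and the control values on 19, 3, 16 and 34 counts. MC38 libraries lay above all others, and LLC libraries overlapped the controls. Gbp4 differed by 5.92 ± 0.66 between supernatants (adjusted p = 9.01e-05) and by 4.20 ± 0.53 for MC38 against control (adjusted p = 5.71e-05). LLC supernatant against control gave -1.71 ± 0.59 (adjusted p = 0.0253) with overlapping libraries. This call was lost without LLC supernatant replicate 1 (-1.72, adjusted p = 0.0817) or 2 (-1.45, adjusted p = 0.11; range over 15 alternatives 0.00289 to 0.11), and without control culture replicate 4 the value was -1.07 and that of MC38 against control 4.86.

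Gbp6 had 93.1, 84.1 and 72.4 CPM with MC38 supernatant, 3.73, 3.26 and 2.88 CPM with LLC supernatant and 2.04, 1.62, 1.55 and 3.0 CPM in control cultures. With MC38 supernatant it was higher than in control by 5.38 ± 0.21 (adjusted p = 5.91e-09), the largest such difference of the 8 members. The supernatants differed by 4.70 ± 0.22 (adjusted p = 2.67e-07). With LLC supernatant the rise against control was 0.68 ± 0.20 (adjusted p = 0.0126), with overlapping libraries, and it was lost without LLC supernatant replicate 1 (0.59, adjusted p = 0.0632; range over 15 alternatives 8.58e-05 to 0.0632). Gbp9 had 102, 94.4 and 72.3 CPM with MC38 supernatant, 15.1, 14.4 and 17.8 CPM with LLC supernatant and 13.3, 13, 15 and 18.6 CPM in control cultures. It separated MC38 supernatant from both other groups (2.54 ± 0.15 against LLC, adjusted p = 1.15e-06; 2.61 ± 0.14 against control, adjusted p = 5.16e-08), and those overlapped (0.07 ± 0.14; adjusted p = 0.655).

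Gbp8 was, with Gbp6, called higher with both supernatants than in control cultures. It had 2.96, 3.29 and 2.96 CPM with MC38 supernatant, 2.11, 2.26 and 1.8 CPM with LLC supernatant and 0.139, 0.26, 0.227 and 0 CPM in control cultures. The counts behind them were 70, 77 and 84 with MC38 supernatant, 52, 61 and 45 with LLC supernatant, and 4, 4, 6 and 0 in control cultures, where the count of 0 allows up to 0.148 CPM. The supernatant libraries lay above all controls. The rise was 4.31 ± 0.60 with MC38 supernatant (adjusted p = 9.62e-05) and 3.69 ± 0.59 with LLC supernatant (adjusted p = 0.000266). Between the supernatants the libraries were apart, but the difference of 0.62 ± 0.55 did not pass (adjusted p = 0.41; 95% interval -0.62 to 1.86). A fit of those 2 groups alone called it (0.64, adjusted p = 0.0216; range over 13 alternatives 0.0216 to 0.685).

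**Figure D5:**
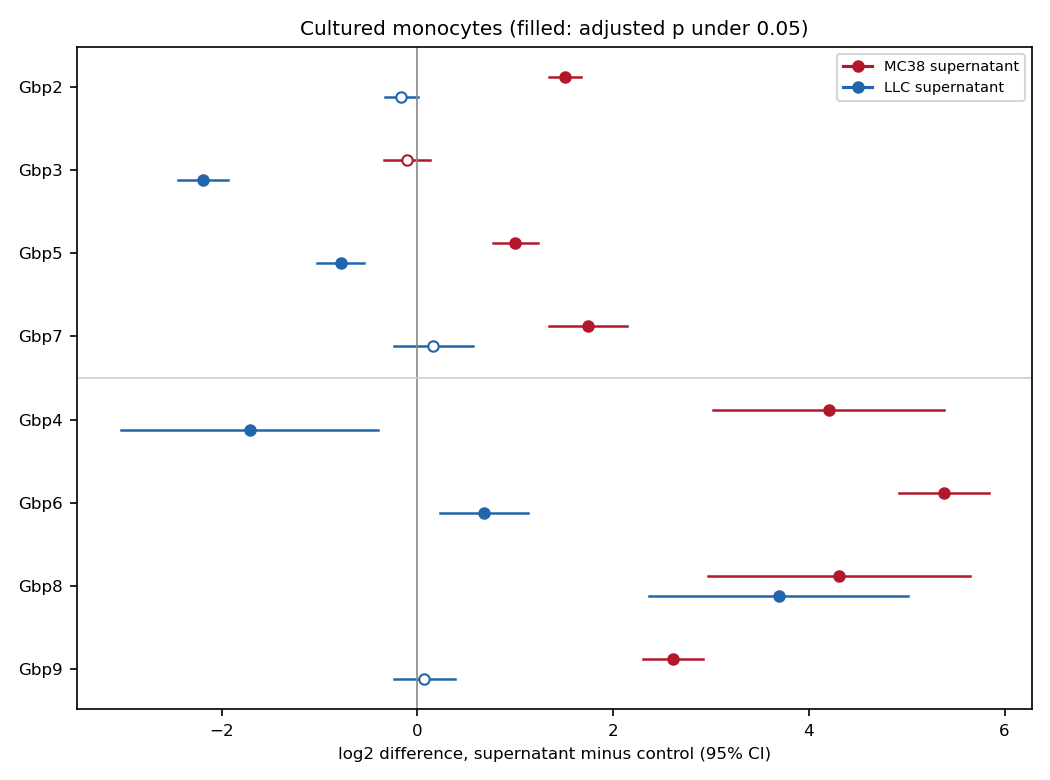
Log2 differences of cultures with MC38 supernatant (red) and LLC supernatant (blue) from the control cultures, with 95% confidence intervals, for the 8 members. Filled points passed adjusted p under 0.05; all members but Gbp3 are above 0 with MC38 supernatant, and with LLC supernatant the called values of Gbp6 and Gbp8 are above 0 and those of Gbp3, Gbp4 and Gbp5 below it.

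Ifng had 0 counts in all 10 cultures, which allows up to 0.0398 CPM over the libraries with MC38 supernatant, 0.0392 CPM with LLC supernatant and 0.033 CPM in control cultures (3 counts over each group). The T and NK cell marker sums were 0.984 to 1.18 CPM with MC38 supernatant, 0.365 to 0.521 CPM with LLC supernatant and 10.6 to 14.6 CPM in control cultures. The macrophage markers summed to 3810 to 4830 CPM with MC38 supernatant, 4710 to 4740 CPM with LLC supernatant and 425 to 521 CPM in control cultures. All 7 were higher with each supernatant than in control. Between the supernatants 6 of 7 neutrophil markers, 4 of 6 monocyte markers and 3 of 5 tested dendritic cell markers were higher with MC38. None of these was lower, against 21.6% of all genes called higher and 18.5% lower. Neutrophil marker sums were 1210 to 1610 CPM with MC38 supernatant and 1590 to 1640 CPM with LLC supernatant. The part of these markers in the Gbp differences was not tested. Leaving out MC38 supernatant replicate 3 and control culture replicate 2, which held fibroblast transcripts, kept the direction of every difference called.

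The MC38-minus-LLC difference of tumor monocytes was then compared with that of the cultures, in a fit of all 34 libraries. For 6 of 8 members it was smaller in the tumors than in culture, against 16.0% of genes called lower. They were Gbp4 (-3.84 ± 0.68; adjusted p = 8.15e-05), Gbp6 (-2.06 ± 0.42; adjusted p = 0.000361), Gbp9 (-1.96 ± 0.19; adjusted p = 4.41e-09), Gbp3 (-0.93 ± 0.19; adjusted p = 0.000452), Gbp5 (-0.81 ± 0.24; adjusted p = 0.0102) and Gbp7 (-0.70 ± 0.23; adjusted p = 0.0203). Gbp8 went the other way, with a larger difference in the tumors (2.79 ± 0.52; adjusted p = 0.000151), against 14.8% of genes called higher. Gbp2 was at -0.78 ± 0.33 (adjusted p = 0.0725), and it passed in 6 of 22 alternatives with adjusted p between 0.0083 and 0.142, among them leaving out TuMon1 replicate 4 (-0.88) or TuMon2 replicate 2 (-0.86). Gbp7 was lost without MC38 supernatant replicate 1 (-0.45, adjusted p = 0.108) or LLC supernatant replicate 1 (-0.67, adjusted p = 0.0505), with a range of 0.00182 to 0.108 over 22 alternatives.

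The table also held 3 more rows of the family, which were not members. Gbp2b, next to Gbp2 on chromosome 3, averaged 22.15 ± 10.3 CPM in MC38 TuMac and 1.2 ± 1.18 CPM in LLC TuMac (SD, n = 4 each). In TuMon1 its mean was 13.9 ± 2.14 CPM, against 1.51 ± 0.94 CPM in TuMon2 (SD over 4 libraries each). Gbp10 averaged 10.05 ± 2.54 CPM in TuMon1, against 1.85 ± 0.84 CPM in TuMon2 (SD over 4 libraries each). With MC38 supernatant it averaged 2.44 ± 1.27 CPM (SD, n = 3). It had 0 counts in all 3 libraries with LLC supernatant and all 4 controls, where 3 counts over the group would be 0.0392 and 0.033 CPM. Gbp11, annotated as a transcribed pseudogene, stayed at or below 5.2 CPM in every library.

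The wider pathway was read from lists of related genes. Of 15 interferon receptor, kinase and transcription factor genes, 9 were higher and 2 lower in TuMon1 than in TuMon2 (list median 0.45), against 26.8% of all genes higher and 22.1% lower, among them Batf2 (2.15 ± 0.16) and Stat2 (0.90 ± 0.11). In macrophages 8 were higher and 4 lower in MC38 TuMac, against 22.4% and 22.9% of all genes, with Ifngr1, the ligand-binding chain of the interferon gamma receptor, at -1.28 ± 0.09. Between supernatants 10 were higher with MC38 and none lower, against 21.6% and 18.5% of all genes, among them Stat2 (1.56 ± 0.08) and Irf1 (1.25 ± 0.09). Against control, LLC supernatant had 4 higher and 10 lower, against 32.3% and 36.1% of all genes. MC38 supernatant had 8 higher and 3 lower, against 35.4% and 32.5%. Irf1, a transcription factor of the interferon response, was lower with LLC supernatant than in control cultures (-1.01 ± 0.08). Of the members, Gbp3, Gbp4 and Gbp5 were also called lower there, Gbp6 and Gbp8 were called higher, and Gbp2, Gbp7 and Gbp9 were not called. A link between Irf1 and the members was not tested.

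The immunity-related GTPases, another family of interferon-induced GTPases that act on pathogen vacuoles, mostly moved in the same direction. Of 8, 7 were higher and 1 lower in TuMon1 than in TuMon2 (median 1.58), against 26.8% and 22.1% of all genes. In macrophages 7 were higher and 1 lower in MC38 TuMac than in LLC TuMac (median 2.23), against 22.4% and 22.9%. Between supernatants 7 were higher with MC38 and none lower (median 2.33), against 21.6% and 18.5%. Tgtp2 was at 4.38 ± 0.12 there, Igtp at 2.43 ± 0.10 and Irgm1 at 1.99 ± 0.09. Of 8 other large GTPases 3 were higher and 1 lower in each of these 3 comparisons, not far from the shares over all genes. The 3 higher ones were Mx1, Mx2 and Gvin1, all induced by interferon.

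Genes that act with the Gbp proteins were read in the same way. Of 13 inflammasome and pyroptosis genes, 5 were higher and 3 lower in TuMon1 than in TuMon2 (list median 0.12), near the shares of 26.8% and 22.1% over all genes. Examples were Casp4, the sensor of cytosolic lipopolysaccharide, at 0.91 ± 0.10, Gsdmd, the pore-forming gasdermin, at 0.51 ± 0.08, and Ninj1, which ruptures the plasma membrane, at -0.74 ± 0.10. Between supernatants 5 were higher and 1 lower with MC38, against 21.6% and 18.5% of all genes. Casp4 was at 1.58 ± 0.12 there and Ninj1 at -1.0 ± 0.11. The highest adjusted p among the pathway genes given with a value was 6.99e-05, for Ninj1 between supernatants. Of 8 prenylation enzymes 2 were higher and 2 lower in TuMon1, near the same 26.8% and 22.1%. Of 10 ATG8 conjugation genes, which help direct Gbp proteins to vacuoles, none was higher and 1, Atg7, was lower (-0.40 ± 0.07), below those shares. The medians of those last lists were -0.01 and 0.03, close to the median of 0.06 over all genes.

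Among 14574 genes, those most like the mean pattern of the members over the 34 libraries were Aif1 (Pearson r 0.976), Phf11b and Tgtp2 (both 0.968), Tap2 (0.965), Socs1, H2-Q5 and Cd69 (all 0.963), Igtp (0.962), H2-Q4 (0.961) and AW011738 (0.959). These libraries share tissue and sorting within a group, and the correlations are descriptions across 34 libraries of 9 groups. Among the members Gbp2 and Gbp5 were the most alike (0.985), and Gbp3 and Gbp8 the least (0.695). The closest other gene was Irf1 for Gbp3 (0.977), Cfb for Gbp4 (0.973), Phf11d for Gbp6 (0.982), Socs1 for Gbp7 (0.972), Batf2 for Gbp8 (0.959), Oas2 for Gbp9 (0.981), and AW011738 for both Gbp2 (0.973) and Gbp5 (0.985).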

How the data were processed

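Bulk mRNA was sequenced in 34 libraries of 9 groups, with a stranded mRNA kit and PCR, per the labels' protocols. The authors made and deposited 1 table of estimated counts, not normalized, for 24475 Entrez genes. The submitters' processing notes name CASAVA 1.8.2 and GRCm38 (mm10), without a role. Aligner and counter: not given in the sources used here. Of the values 14.48% were not whole (tolerance 1e-06), and they were rounded. Groups were taken from the titles, because the tumor label of some samples counts upward in number. Of the identifiers 24375 matched a RefSeq symbol. No column was left unmatched and no library was a copy of another.

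Counts were tested with edgeR 4.0.16 (R 4.3.3, limma 3.58.1): TMM scaling, the default filter on low counts, robust quasi-likelihood fits and Benjamini-Hochberg adjustment over all genes, called at 0.05. The 24 in vivo libraries (13200 genes), the 10 cultures (12603 genes) and all 34 (14582 genes) were fitted separately. The standard error is the log2 difference divided by the square root of F, and intervals are 95%. CPM use TMM sizes of all 34 libraries. Correlations use log2 CPM with a prior count of 2. Where a gene is at 0, the limit given is 3 counts, which covers counting error only. The steps were also run on simulated data with the same dispersion for every gene, and no outcome of that run is used here.

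All 8 members were named in each comparison, and of each pathway list up to 3 genes with the smallest adjusted p. One gene that this rule names is not reported here. The members, the lists and the set of 5 libraries with foreign transcripts were chosen with earlier results of these data known. The alternatives tried were scaling by RLE or by upper quartile, leaving out the filter, requiring 5 CPM in 3 libraries, fitting with DESeq2 1.42.0, adding a replicate block, a fit of the compared groups alone, and leaving out those 5 libraries or each replicate in turn. Over all genes, same-numbered libraries showed no general tendency to deviate together (correlations -0.459 to 0.373, at most 1 pair per comparison over 0.1). The numbers were therefore not used to pair samples in the main tests. That check was not run on the members alone, whose sum was highest in replicate 4 of each tumor group. Calls that change with a replicate block are given below.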

Additional observations from a re-analysis of the deposited data

Results flagged for a closer look

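A library stood far from the others of its group of 4 in 8 of 56 cases tested with Dixon's test. The members' levels were correlated across libraries, so the cases are not independent and the count is not set against a chance rate. Of the 8 cases, 5 were LLC spMon replicate 3, with 213 CPM of Gbp2, 151 CPM of Gbp3, 25.9 CPM of Gbp4, 80.4 CPM of Gbp5 and 27.6 CPM of Gbp6. The same library had 195 CPM of Irgm1, against 140 to 145 CPM in the other 3. LLC TuMon2 replicate 4 stood apart with 108 CPM of Gbp4 and 211 CPM of Gbp9, and MC38 spMon replicate 1 with 17.2 CPM of Gbp4.

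Differences between MC38 and LLC in the size of a change were also found. The tumor-minus-spleen difference was larger in MC38 by 0.97 for Gbp2, 1.5 for Gbp3, 2.08 for Gbp4, 1.25 for Gbp5, 2.17 for Gbp6, 1.25 for Gbp7, 3.65 for Gbp8 and 0.58 for Gbp9. The macrophage-minus-monocyte difference was larger, that is less negative, in MC38 by 1.2 for Gbp2, 0.73 for Gbp3, 1.08 for Gbp5, 0.70 for Gbp7 and 0.98 for Gbp9. The MC38-minus-LLC difference in tumor monocytes departed from that in culture by -0.93 for Gbp3, -3.84 for Gbp4, -0.81 for Gbp5, -2.06 for Gbp6, -0.70 for Gbp7, 2.79 for Gbp8 and -1.96 for Gbp9. Each was tested as a contrast of differences in 1 fit.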

How the results depend on the processing

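Of 1805 member values recomputed under the alternatives, 1717 kept direction and call, 43 lost the call, 24 gained one and 21 changed sign. Of the 21, 20 were between the spleens and 1 elsewhere, and none was of a called member. Of 226 counts of members called, 218 stayed within 1.5 times. Between the spleens, where 2 members were called, the count was 1 with upper quartile scaling, 0 without the 5 libraries with foreign transcripts (where MC38 spMon keeps 1 library, assumed to vary like the other groups), 0 in a fit of those groups alone, and 0 to 3 when 1 replicate was left out. For LLC supernatant against control, where 5 were called, leaving out 1 replicate gave 3 to 6.

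The spleen difference of Gbp4 changed sign to 0.018 with RLE scaling, 0.047 with upper quartile scaling, 0.022 without a filter, 0.041 with DESeq2, 0.022 with the replicate block and 0.10 with those groups alone. That of Gbp9 became 0.014 with RLE scaling, 0.039 with upper quartile scaling, 0.015 without a filter, 0.013 with DESeq2, 0.15 without the 5 libraries and 0.067 with those groups alone. Without the 5 libraries Gbp2 was 0.25 and Gbp8 was 0.24. Leaving out 1 replicate gave -0.29 to 0.19 for Gbp2, -0.26 to 0.56 for Gbp4, -0.52 to 0.30 for Gbp8 and -0.12 to 0.054 for Gbp9, and -0.014 to 0.20 for Gbp9 with LLC supernatant against control. The cause was not tested.

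The replicate block changed 4 of 104 calls. It added Gbp3 in TuMon2 against LLC spMon (0.24, adjusted p = 0.0159), Gbp4 in MC38 TuMac against TuMon1 (-0.69, adjusted p = 0.0388) and Gbp2 in tumor against culture (-0.77, adjusted p = 0.027), and removed Gbp4 in LLC supernatant against control (-1.01, adjusted p = 0.0556). Under the stricter filter the edgeR fit of the cultures gave no value for Gbp8, between supernatants or for either supernatant against control. Low counts limit Gbp4 and Gbp8 in the cultures with LLC supernatant or none.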
